A study of Homo sapiens with 2 samples.

Results

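GSK126, GSK503, CPI_169 and CPI_360, which inhibit EZH2, and EED226, which binds EED, are 5 compounds aimed at Polycomb repressive complex 2 (PRC2). Their wells were found by the compound name in the deposited well annotation. They filled 12 of the 192 wells: GSK503 had 2 positions on each of 2 plates (wells 39 and 47, 4 wells in all), and each of the other 4 compounds had 1 position per plate (2 wells).

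All wells held K562 cells, an established line from chronic myeloid leukaemia with erythroid character, taken after 6 h with a compound. MAC-seq, which barcodes each well and sequences the 3′ ends of polyadenylated RNA, gave counts per gene and well. The PRC2 compounds were set against 12 reference wells, 2 each of EtOH, Ofloxacin (an antibiotic), Pinometostat and SGC_0946 (inhibitors of DOT1L), EPZ015666 and GSK591 (inhibitors of PRMT5), and against 24 wells of the vehicle DMSO. No dose is given in the labels, and nothing says that the wells of a treatment are more than technical duplicates, so p-values measure only the spread between wells.

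PRC2 places methyl groups on lysine 27 of histone H3, a mark of silent chromatin. EZH2 is its catalytic subunit and works only together with SUZ12 and EED. EED also binds the finished trimethyl mark, and this binding stimulates the enzyme. EZH2 inhibitors act at the catalytic site, whereas EED226 occupies the pocket of EED that reads the mark. PRC2 is known for holding HOX genes, other developmental regulators and cell cycle inhibitors such as CDKN1C silent. The mark is removed by the demethylases KDM6A and KDM6B and is diluted as cells divide.

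Human counts per well ran from 348201 to 1129123 (median 829556.5) with the PRC2 compounds, from 462597 to 1238536 (median 855873) in the reference and from 173553 to 1030814 (median 728691.5) in DMSO. Human counts per ERCC spike-in count averaged 5.62 ± 0.49 over the 5 PRC2 compounds and 5.58 ± 0.58 over the 6 reference treatments (SD; exact two-sided permutation test, 462 arrangements, p = 0.885). All 14 K562 markers were among the genes tested and summed to 30300 CPM (the gene's counts relative to all human counts of the wells, unscaled) with the PRC2 compounds, 30500 in the reference and 27700 in DMSO. The 18 markers of lymphoid, myeloid, epithelial, stromal, endothelial and liver cells summed to 472, 487 and 447 CPM in the PRC2 compounds, the reference and DMSO. By well number, CPI_169 (well 63), CPI_360 (well 27) and GSK503 well 39 lay in the third column of the plate, while GSK126 (well 80), EED226 (well 56) and GSK503 well 47 lay in columns 8 and 11, and no reference well was in the third column. Of the DMSO wells, 8 lay in the first column. In bulk RNA of a well, fewer cells and less RNA per cell cannot be told apart.

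The mRNAs of PRC2 itself did not pass the test in any comparison of the compounds with the reference. EZH2, the methyltransferase, stood at 47.4, 63 and 69.4 CPM (lowest, median and highest of 12 wells; for single genes CPM are scaled by TMM, a normalization between libraries) with the PRC2 compounds, and at 42.8, 55.3 and 68.6 CPM in the reference. The 2 ranges overlapped almost fully, and the pooled log2 fold change was 0.10, with a 95% interval of -0.08 to 0.28. EED, the subunit bound by EED226, stood at 27.2, 57.8 and 66.6 CPM with the compounds, against 44, 59.6 and 72 CPM in the reference, a log2 fold change of -0.04. SUZ12, the scaffold subunit, stood at 7.91, 13 and 24.1 CPM with the compounds, against 7.09, 14.1 and 22.9 CPM in the reference, a log2 fold change of -0.14. The levels of each of these 3 core subunits overlapped between the groups, and with EED226 alone EED measured 66 and 66.6 CPM, inside the reference range.

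Of 12 PRC2 subunits and partners, 11 were tested, and 0 passed an adjusted p of 0.05 in edgeR's quasi-likelihood test. Their median log2 fold change was -0.10, beside -0.01 over all 9235 genes tested, and the values ran from -0.17 for PHF1, a Polycomb-like protein that recruits the complex, to 0.31 for AEBP2, an accessory subunit with only 2.25 to 9.1 CPM with the compounds. EZH1, the paralogue of EZH2, was at -0.12, JARID2, an accessory subunit, at -0.06, RBBP4 and RBBP7, histone-binding subunits, at -0.09 and -0.13, and MTF2 and PHF19, the other Polycomb-like proteins, at -0.12 and -0.10. None of the 11 had an unadjusted p under 0.05. The median over the same 11 genes was -0.06 with GSK126, -0.13 with GSK503, 0.02 with CPI_169, -0.00 with CPI_360 and 0.03 with EED226. The widest single values were 0.78 for AEBP2 with CPI_360 and -0.65 for SUZ12 with EED226, both from genes of few counts and neither past the threshold.

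**Figure D1:**
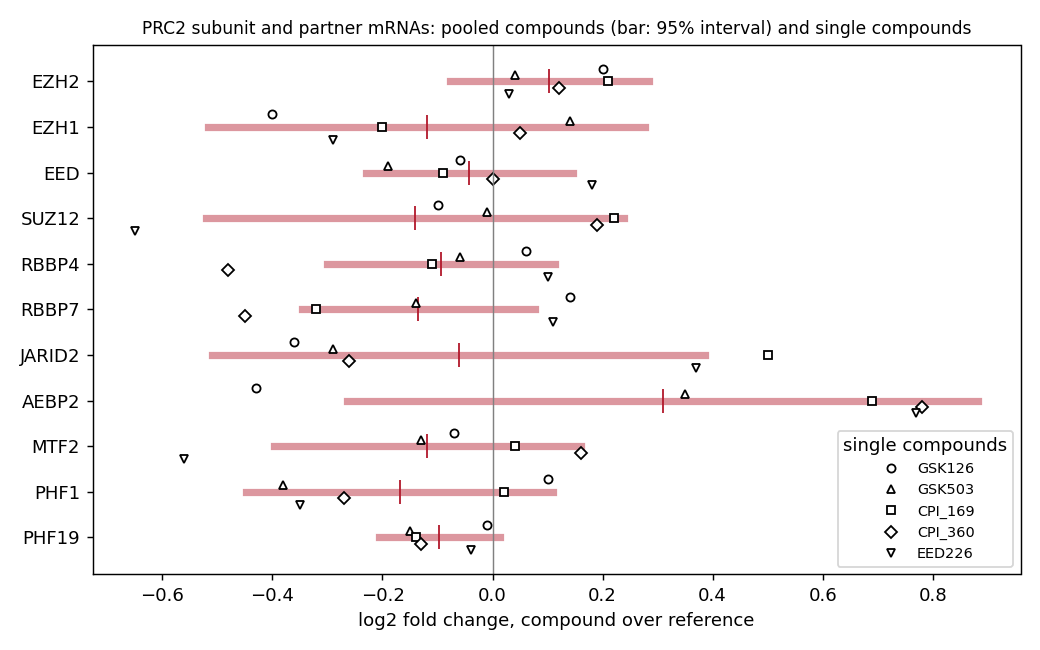
Log2 fold change (x axis) of 11 PRC2 subunit and partner mRNAs against the reference; each bar is the 95% interval and each tick the value of the 5 compounds pooled, and each symbol is a single compound. Every bar spans 0, and single compounds spread most for the low genes AEBP2, SUZ12 and JARID2.

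Genes that other work reports as repressed by EZH2 had very low levels in all groups, and neither the mark nor PRC2 binding was measured here. A list of 25 genes reported as repressed by EZH2, CDKN1C among them, summed to 27.8 CPM with the PRC2 compounds (19.5 to 48.8 over wells), 28.2 in the reference (22.9 to 45.6) and 26.4 in DMSO (17.3 to 49.2). With GSK126 the sum was 28.6, with GSK503 26.7, with CPI_169 28.5, with CPI_360 27.8 and with EED226 28.2 CPM, so that each compound lay close to the reference. CDKN1C, a cyclin-dependent kinase inhibitor, had 47 counts over the 12 wells with the compounds, 34 over the 12 reference wells and 53 over the 24 DMSO wells. CDKN1A, another inhibitor of this kind, had 18 counts with the compounds, 27 in the reference and 46 in DMSO. At such counts only BCL2L11, which encodes the cell death protein BIM, could be tested, with a log2 fold change of -0.14 (SE 0.22, adjusted p = 0.9, edgeR).

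The 39 HOX genes, homeobox regulators of body pattern, summed to 134 CPM with the PRC2 compounds (98.9 to 154 over wells), 135 in the reference (99.2 to 164) and 144 in DMSO (115 to 213). HOXB2 was the largest single member, with 551 counts with the compounds, 573 in the reference and 1038 over the 24 DMSO wells. Of the 7 HOX genes tested 0 passed in any direction, and their median log2 fold change was 0.01, beside -0.01 over all genes tested. HOXB9 had the smallest p, with a log2 fold change of -0.31 (SE 0.16, adjusted p = 0.502), and HOXB4 was at 0.22 (SE 0.15, adjusted p = 0.66). A list of 81 other developmental transcription factors summed to 120 CPM with the compounds, 115 in the reference and 99.8 in DMSO. PITX1 alone held 722 of the list's 1189 counts with the compounds and 709 of 1163 in the reference, so the sum says little of the other genes. The 2 tested, PITX1 and WT1, were at 0.04 and 0.03. KDM6A and KDM6B, the H3K27 demethylases, had 40 and 36 counts with the compounds, 25 and 31 in the reference and 79 and 60 in DMSO, and were too low to test. The members with most counts in the HOX and developmental lists had narrow 95% intervals, -0.23 to 0.16 for HOXB2 and -0.15 to 0.23 for PITX1. Those of HOXB4 (-0.08 to 0.52), HOXB8 (-0.39 to 0.53), HOXB9 (-0.63 to 0.01) and WT1 (-0.37 to 0.43) were wider. For the members left untested a change could not be detected at this depth.

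PRC1, the second Polycomb complex, has several forms, and only some of them bind the mark that PRC2 places. Of 21 PRC1 genes 16 were tested, 0 passed, and the median log2 fold change was -0.02. BCOR, a corepressor of variant PRC1, was at 0.62 (SE 0.24, adjusted p = 0.29), and PCGF1, its partner subunit, at 0.32 (SE 0.15, adjusted p = 0.45).

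Across all genes, 41 of 9235 passed between the 5 compounds pooled and the reference (0.444%), 32 higher (0.347%) and 9 lower (0.0975%) with the compounds, in edgeR's quasi-likelihood test with Benjamini-Hochberg adjustment, and 928 had an unadjusted p under 0.05. The largest rises were those of MTCO3P17, a pseudogene copy of mitochondrial sequence with 0 to 14.7 CPM with the compounds (2.93, SE 0.65), and ENSG00000117289 (0.76, SE 0.16). ENSG00000117289 had no symbol in the gene names used here, which does not mean that the gene is unnamed. Both were chosen after their values were seen, and the other rises were under 0.5. B3GAT3, which builds the linker of glycosaminoglycan chains, rose by 0.47 on the log2 scale (SE 0.1, adjusted p = 0.0228), LEPROTL1, an endosomal membrane protein, by 0.43 (SE 0.1, adjusted p = 0.0302), and PSME2, a subunit of the proteasome activator PA28, by 0.39 (SE 0.08, adjusted p = 0.0228). PTGES2, a prostaglandin E synthase, and PGLS, of the pentose phosphate pathway, both rose by 0.38, PUSL1, a pseudouridine synthase-like protein, by 0.34, and NENF, a secreted neurotrophic factor, SIGIRR, an inhibitory receptor of interleukin 1 signalling, and CFD, complement factor D, each by 0.33. HSP90AB1, the constitutive HSP90 chaperone, fell by 0.27 (SE 0.06, adjusted p = 0.0228), NTMT1, which methylates protein N termini, by 0.31, PTRH2, a peptidyl-tRNA hydrolase, by 0.32, FARSA, the alpha subunit of phenylalanyl-tRNA synthetase, by 0.30, EXOSC4, of the RNA exosome, by 0.27, and NOP16, a nucleolar protein, by 0.21. RPL17P2 (0.33), GAPDHP65 (-0.32), GAPDHP21 (-0.64) and BANF1P3 (-0.67) are pseudogenes that share reads with their parent genes, so their values are uncertain. The 95% interval lay within 2-fold for 97.7% of genes, with a median half-width of 0.29 on the log2 scale.

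These 41 calls rested on few libraries. Without plate 1 or without plate 2 0 genes passed, without CPI_169 or without CPI_360 0 passed, and without Ofloxacin or without SGC_0946 of the reference 0 passed. Without EtOH, EPZ015666 or GSK591 of the reference there were 10, 21 and 24 calls, and without GSK126, GSK503 or EED226 there were 78, 115 and 83. When the 2 wells of each position were summed, leaving 6 positions against 6, 0 passed. DESeq2 called 118 genes and limma-voom 7. With ERCC scaling 1 gene passed.

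For several of these genes the wells of the PRC2 compounds differed by plate column. B3GAT3 measured 100 and 114 CPM (plates 1 and 2) with CPI_169, 80.6 and 124 CPM with CPI_360 and 122 and 78.5 CPM in GSK503 well 39. Outside the third column it measured 71.9 and 78.3 CPM with GSK126, 77 and 80.3 CPM with EED226 and 61.3 and 67.9 CPM in GSK503 well 47, against 50.2, 58.9 and 74.2 CPM (lowest, median, highest) in the reference. The third-column wells thus stood above every reference well, while the other wells of the PRC2 compounds lay within or just above its range. LEPROTL1 measured 79.7 to 96.6 CPM in the 6 third-column wells of the PRC2 compounds and 59.3 to 71.9 CPM in the other 6, against 36.9 to 65.7 CPM in the reference. PSME2 measured 152 to 179 CPM in the third-column wells of the PRC2 compounds and 100 to 134 CPM in the others, against 86.2 to 144 CPM in the reference. For both genes no third-column well of the PRC2 compounds overlapped the reference, and the others did. ATP5MK, a small subunit of mitochondrial ATP synthase shown here because its wells separate cleanly and chosen after its values were seen, measured 999 to 1230 CPM in third-column wells of the PRC2 compounds and 725 to 838 CPM in the others, against 689 to 861 CPM in the reference.

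Compounds with other targets in the same column had levels in the same range. BIX_01294 and A366, which inhibit the H3K9 methyltransferases G9a and GLP, and MI-2 and MI-3, which block menin from binding MLL, were also in the third column (8 wells), and this comparison was added after the data were seen. Their ATP5MK levels were 957 to 1200 CPM and their PSME2 levels 133 to 164 CPM, within or near the range of the third-column PRC2 wells. Their wells held 343156 to 736615 human counts, against 462597 to 1238536 in the reference, and the part of depth in what follows was not tested. Set against the reference, these 4 compounds gave 1523 calls (16.5%). Set against these 4 compounds, the third-column wells of the PRC2 compounds gave 0 calls (466 genes had an unadjusted p under 0.05, edgeR), and the wells of the PRC2 compounds outside the third column gave 0 calls against the reference (787 had an unadjusted p under 0.05). DESeq2 and limma-voom were not run on these 2 comparisons.

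Over the 32 genes that rose, the median log2 fold change against the reference was 0.48 with CPI_169, 0.50 with CPI_360 and 0.42 in GSK503 well 39. It was 0.11 with GSK126, 0.16 with EED226 and 0.11 in GSK503 well 47. EI1, a further EZH2 inhibitor that lay in the third column, had a median of 0.50, and the 4 other third-column compounds had 0.40. All of these share the reference wells and are read side by side only. The genes that rose and fell were chosen by the pooled test on these same PRC2 and reference wells. That choice favours large medians in the compounds that carried the calls, so these medians test nothing. Within the third column, the PRC2 compounds set against the 4 others had a median of 0.06, with 24 genes above 0 and 8 below. The same third-column PRC2 wells helped choose the genes, which favours the called direction here too, so this median also tests nothing. The 9 genes that fell had medians of -0.52, -0.58 and -0.52 with CPI_169, CPI_360 and GSK503 well 39, -0.14, -0.18 and -0.12 with GSK126, EED226 and GSK503 well 47, and -0.02 within the third column. DMSO alone differed by column as well: its first-column wells against its other wells gave 2502 calls (27.1%), and the 32 and 9 genes had medians of 0.24 and -0.37 there. Depth differed along with the column: the first-column DMSO wells had 173553 to 462611 human counts and 2.95 to 4.33 per ERCC count, and the other DMSO wells 446074 to 1030814 and 4.34 to 7.03, and the part of depth in these calls was not tested.

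**Figure D2:**
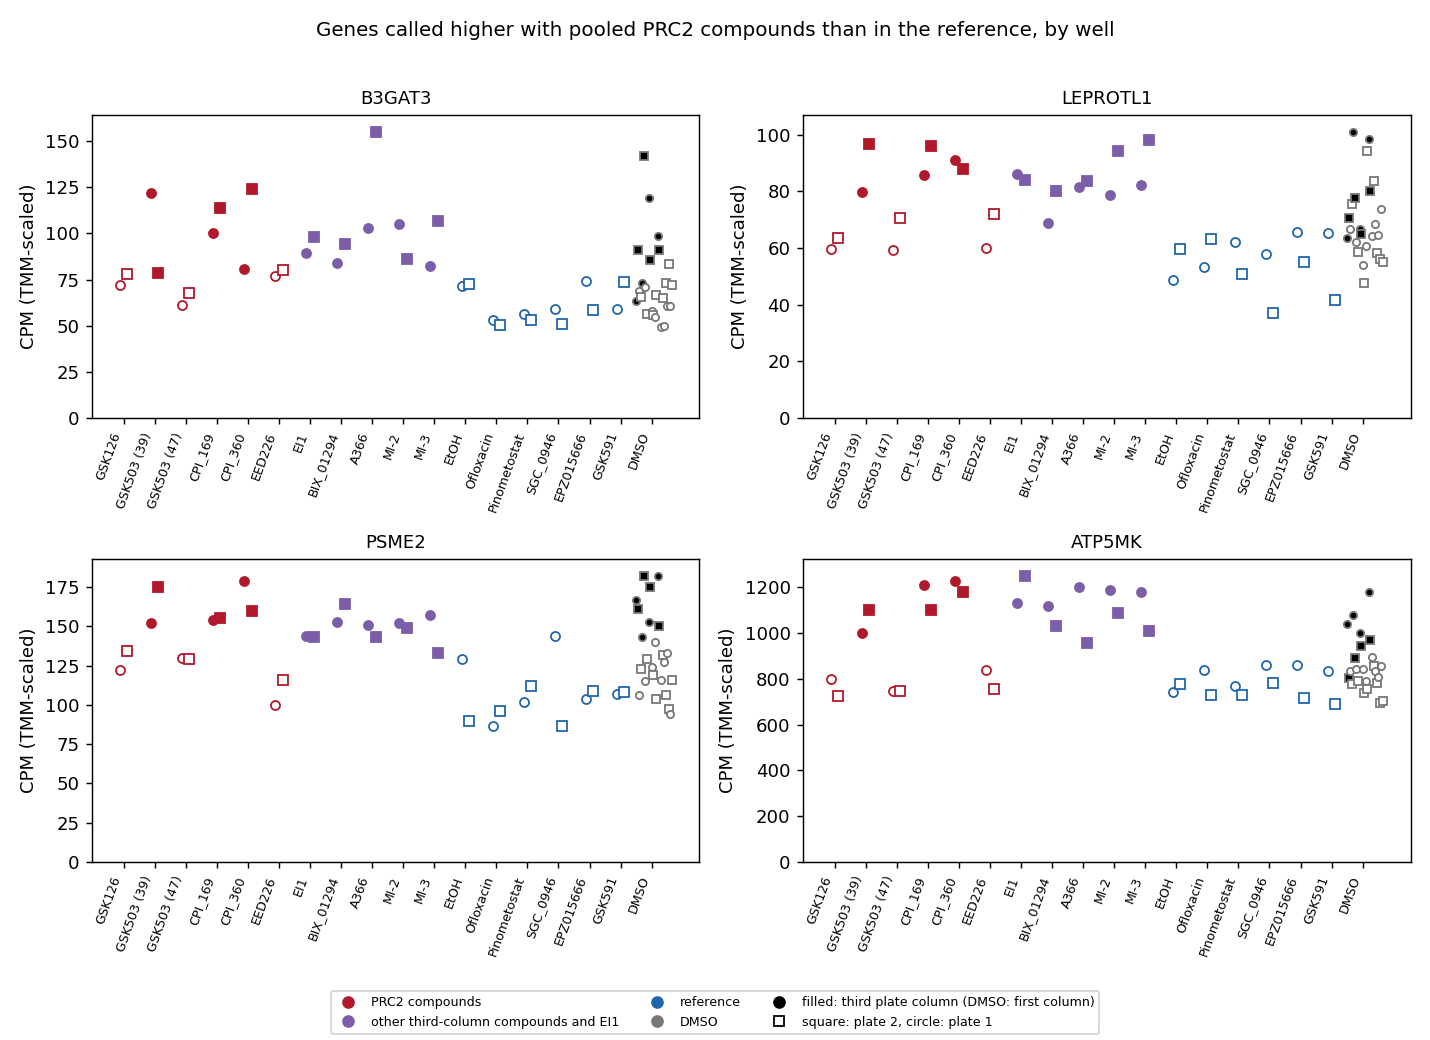
CPM (TMM-scaled, y axis) of B3GAT3, LEPROTL1, PSME2 and ATP5MK in each well, by treatment (x axis; well number in brackets for GSK503; circle: plate 1, square: plate 2; filled: the third plate column or, for DMSO, the first). Filled wells of the PRC2 compounds and of EI1, BIX_01294, A366, MI-2 and MI-3 lie mostly above the open PRC2 wells and the reference, with some overlap in B3GAT3, LEPROTL1 and PSME2; ATP5MK is 999 to 1230 CPM in filled PRC2 wells and 725 to 838 CPM in open ones.

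**Figure D3:**
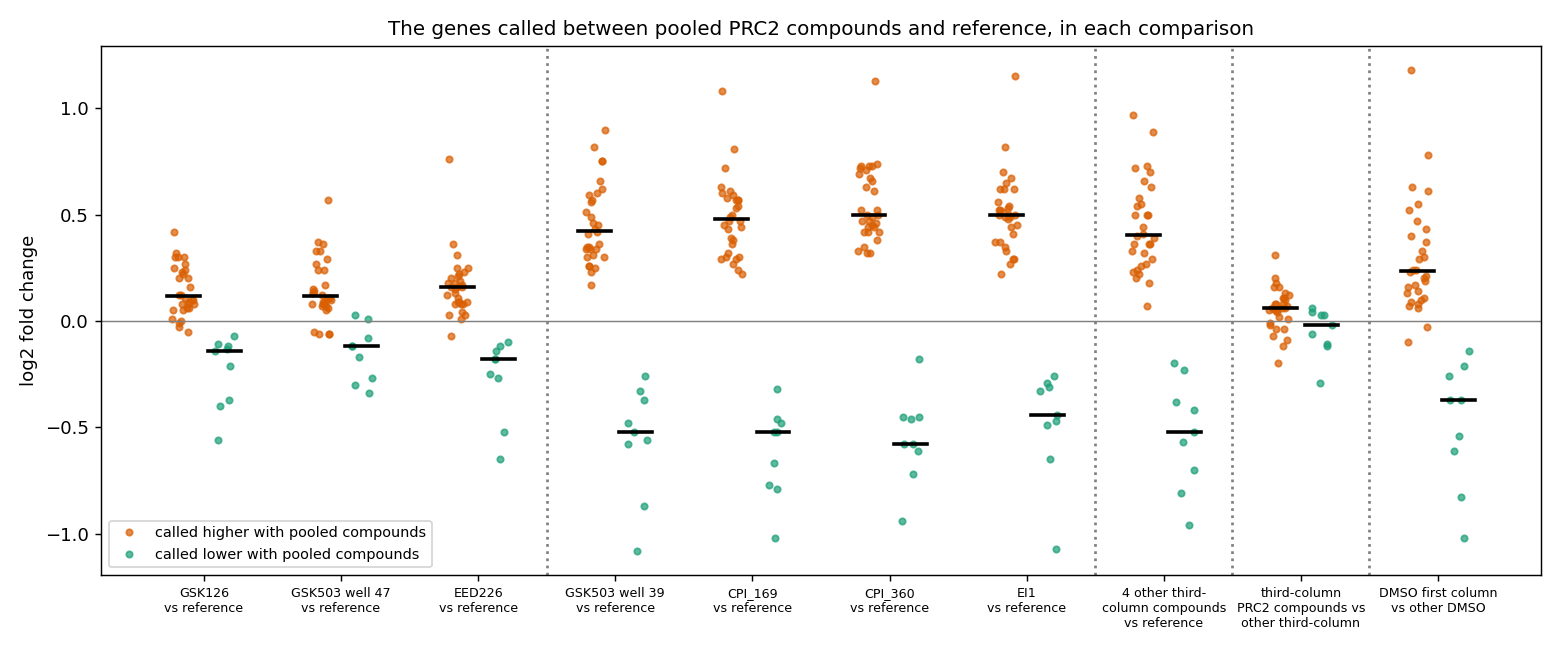
Log2 fold change (y axis) of the 41 genes called between pooled PRC2 compounds and the reference, each point a gene, in the comparisons named on the x axis; black lines are medians, and MTCO3P17, whose values lie beyond the axis, counts in the medians but is not drawn. The risen genes sit near 0.1 to 0.2 for GSK126, GSK503 well 47 and EED226, near 0.4 to 0.5 for the compounds of the third column, and at 0.06 when third-column PRC2 compounds are set against the others of that column. The genes were chosen on the same PRC2 and reference wells that are shown.

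CPI_360 had the most calls of a single compound against the reference, 73 genes (0.79%), 65 higher (0.704%) and 8 lower (0.0866%), with 1163 at an unadjusted p under 0.05. ATOX1, a copper chaperone, measured 410 and 383 CPM with CPI_360, against 192 to 267 CPM in the reference, and rose by 0.73 (SE 0.12, adjusted p = 0.00124, edgeR). RBM14, a coactivator that binds RNA, rose by 0.97, SHISA5, a membrane protein of the endoplasmic reticulum, by 0.88, DGAT1, which completes triglyceride synthesis, by 0.88, TRAPPC6A, of a vesicle tethering complex, by 0.85, and YIPF3, a Golgi protein, by 0.84. ATP2A1-AS1 (0.95) is antisense to another gene and RPL9P18 (0.88) and RPS6P16 (0.79) are pseudogenes, so reads of other genes may be counted in them. RHAG, the Rh-associated glycoprotein that the Rhesus antigens need to reach the red cell membrane, measured 52 and 74.7 CPM with CPI_360, against 91.7 to 144 CPM in the reference, and fell by 0.84 (SE 0.22, adjusted p = 0.0369). RBM17, a splicing factor, measured 19.5 and 18.7 CPM, against 30.1 to 52.1 CPM in the reference, and fell by 1.09 (SE 0.25, adjusted p = 0.0177). IFT25, of the ciliary transport machinery, and PDCD10, linked to vascular malformations, fell by 0.50 and 0.66, and TXNP5 and RPS27P8, both pseudogenes, by 0.77 and 0.73.

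The genes called with CPI_360 were not alike in how they compared with other wells of the column. RHAG was -0.84 with CPI_360 but 0.04 with CPI_169 of the same column, and RBM17 was -1.09 and -0.33. APRT, which salvages adenine, differed by column. It measured 576 and 545 CPM with CPI_360, 570 and 595 CPM with CPI_169 and 685 and 579 CPM in GSK503 well 39. It measured 929 to 968 CPM in the other wells of the PRC2 compounds, against 868 to 971 CPM in the reference. The 2 ranges of the PRC2 compounds do not overlap, and that outside the third column lies inside the reference. The other third-column compounds had 533 to 665 CPM, first-column DMSO wells 510 to 643 CPM and other DMSO wells 837 to 1030 CPM. Against the 4 other third-column compounds 0 genes passed with CPI_360 (418 at an unadjusted p under 0.05, edgeR), and the values were -0.13 for APRT, 0.12 for ATOX1, -0.35 for RHAG and -0.79 for RBM17 (adjusted p = 0.816). With plate 1 or plate 2 left out CPI_360 had 0 calls against the reference.

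CPI_169 gave 29 calls against the reference (0.314%), 24 higher (0.26%) and 5 lower (0.0541%), with 1050 genes at an unadjusted p under 0.05. MARS1, methionyl-tRNA synthetase, measured 21.2 and 16.9 CPM with CPI_169, against 30.1, 46 and 54.2 CPM (lowest, median, highest) in the reference, and fell by 1.25 (SE 0.24, adjusted p = 0.00555, edgeR). Both wells lay below every reference well, and also below the 29.8 to 60.5 CPM of the 4 other third-column compounds, where the fold change was -1.19 (adjusted p = 0.0656). The MARS1 difference was thus nearly as large within the column, although it did not pass there, and the lowest DMSO well had 20.2 CPM. FARSA measured 97.7 and 110 CPM with CPI_169, against 129 to 211 CPM in the reference, and fell by 0.67 (SE 0.13, adjusted p = 0.00555), with -0.26 within the column. DHRS3, a retinal reductase, measured 124 and 116 CPM with CPI_169, against 32.2 to 87 CPM in the reference, and rose by 0.82 (SE 0.18, adjusted p = 0.0139), with 0.47 within the column. PPP1CB, a catalytic subunit of protein phosphatase 1, rose by 1.00 (SE 0.2, adjusted p = 0.00555), RBM14 by 0.97, EIF2S3, the gamma subunit of the initiation factor eIF2, by 0.76, COA3, an assembly factor of cytochrome c oxidase, by 0.61, and GART, of purine synthesis, by 0.58. LINC01003, a long non-coding RNA, rose by 0.82 and the pseudogene RPL17P39 by 0.57, while the pseudogenes GAPDHP63, GAPDHP1 and CKS1BP3 fell by 0.81, 0.63 and 1.26. Against the 4 other third-column compounds 0 genes passed (353 at an unadjusted p under 0.05), and without plate 1 or plate 2 CPI_169 had 0 and 1 calls against the reference.

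GSK126 gave 3 calls against the reference (0.0325%), all higher, with 357 genes at an unadjusted p under 0.05, and 0 calls without plate 1, without plate 2 or with DESeq2. CTNNB1, which encodes beta-catenin, measured 92.1 and 115 CPM with GSK126, against 13.1, 33.9 and 113 CPM (lowest, median, highest) in the reference, and rose by 1.48 (SE 0.29, adjusted p = 0.0159, edgeR). The groups overlapped, because Pinometostat, 1 of the 6 reference treatments, measured 113 and 94.5 CPM, and the 24 DMSO wells ran from 29.8 to 101 CPM. EIF2S3 measured 154 and 179 CPM with GSK126, against 63.3 to 167 CPM in the reference, again highest with Pinometostat (167 and 141 CPM), and rose by 0.87 (SE 0.17, adjusted p = 0.0164). ENSG00000267458, without a symbol in the gene names used here, measured 125 and 133 CPM with GSK126 and 113 and 117 CPM with Pinometostat. It rose by 2.05 with GSK126 (SE 0.39, adjusted p = 0.0159, edgeR). All 3 genes differed about as widely between reference treatments as between GSK126 and the reference.

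GSK503 and EED226 gave 0 calls each against the reference in edgeR, DESeq2 and limma-voom, with 385 and 367 genes at an unadjusted p under 0.05. The median half-width of the 95% interval was 0.45 for GSK503 and 0.53 for EED226 on the log2 scale, which is the precision for a typical gene before adjustment. GSK503 was the only compound of the 5 with 2 positions. Its well 39 in the third column gave 3 calls against the reference (0.0325%), and its well 47 gave 0 (402 at an unadjusted p under 0.05). Set directly against each other, well 39 and well 47 of the same compound differed in 5 genes (0.0541%), among them CALR, the endoplasmic reticulum chaperone calreticulin, at 0.89 (SE 0.19, adjusted p = 0.034). The wells at position 39 were also the shallowest of the PRC2 compounds, with 401694 and 348201 human counts.

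The 5 compounds form 10 pairs, and over all 92350 tests of these pairs 0 genes passed an adjusted p of 0.05. Since no dose is given, the pairs cannot be matched for dose, and the values stand side by side. With adjustment inside each pair, 8 pairs gave no call, with 240 to 962 genes at an unadjusted p under 0.05. The other pairs gave 1 call each (0.0108%): MARS1 was higher by 1.48 (SE 0.29, adjusted p = 0.0243) with GSK126 (51.7 and 55.8 CPM) than with CPI_169 (21.2 and 16.9 CPM), and DHRS3 was -1.15 (SE 0.22, adjusted p = 0.0163) with GSK503 (48.3 to 69.7 CPM) against CPI_169 (124 and 116 CPM). In neither gene did the wells of the 2 compounds overlap. DESeq2 made 84 calls within the pairs and limma-voom 8.

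GSK126 and GSK503 had 314 genes at an unadjusted p under 0.05 with a median interval half-width of 0.65, and CPI_169 and CPI_360, both of the third column, had 330 with 0.74. The most such genes, 962, came from CPI_360 against EED226, and the fewest, 240, from GSK126 against EED226, which both lay outside the third column. The 4 EZH2 inhibitors pooled against EED226, the comparison of catalytic inhibition with binding of EED, gave 0 calls in edgeR, DESeq2 and limma-voom, with 517 genes at an unadjusted p under 0.05. Its median half-width was 0.54, and 71.4% of intervals lay within 2-fold. A test that misses its threshold does not show that the compounds act alike: in single pairs the interval lay within 2-fold for 47.1% to 62.6% of genes.

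**Figure D4:**
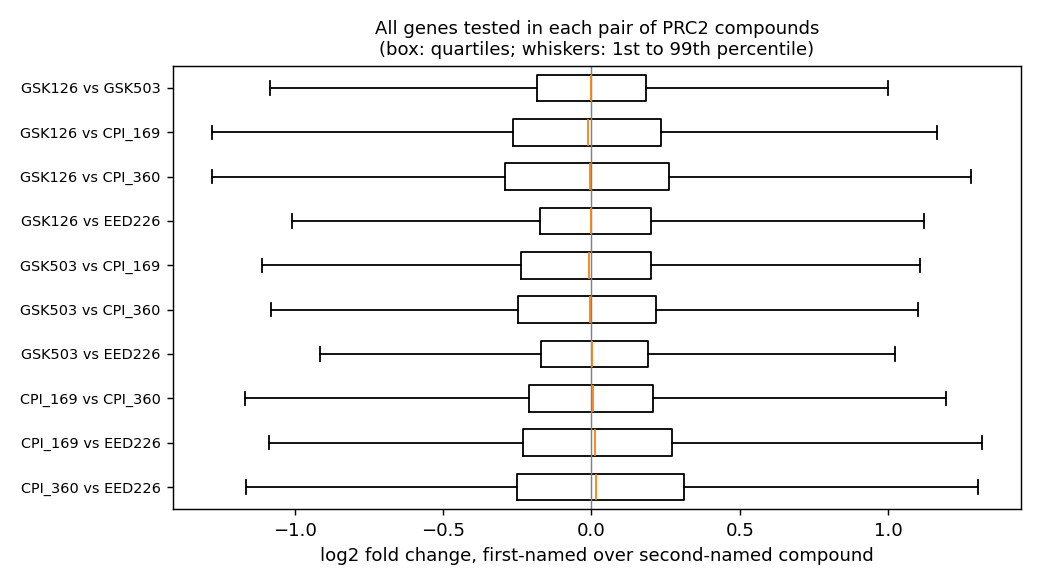
Log2 fold change (x axis) of all 9235 genes tested in each of the 10 pairs of PRC2 compounds, the first-named over the second (box: quartiles with the median; whiskers: 1st to 99th percentile). All medians lie near 0, and the boxes are widest for GSK126 or EED226 against CPI_169 or CPI_360.

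Against DMSO more genes passed with the PRC2 compounds, with 498 calls (5.39%), 325 higher (3.52%) and 173 lower (1.87%). The 6 reference treatments, a solvent, an antibiotic and inhibitors of other enzymes, gave 544 calls against the same DMSO wells (5.89%), 358 higher (3.88%) and 186 lower (2.01%). NFE2, an erythroid transcription factor, averaged 267 ± 19.4 CPM with the PRC2 compounds, 265 ± 20.6 CPM in the reference and 133 ± 30.9 CPM in DMSO (SD, n = 12, 12 and 24 wells). The lowest well of the PRC2 compounds had 248 CPM and the lowest reference well 235 CPM, both above the highest DMSO well at 196 CPM. NFE2 was 1.02 higher on the log2 scale than DMSO with the PRC2 compounds (SE 0.07, adjusted p = 1.87e-16) and likewise 1.02 higher in the reference. LMO2, a bridging factor of the GATA1 complex, was 1.31 higher with the PRC2 compounds and 1.29 higher in the reference. LYL1, a helix-loop-helix factor, was 0.97 and 0.99 higher, HEMGN, a nuclear protein of blood cells, 1.01 and 0.91, GATA1, the main erythroid factor, 0.82 and 0.72, and MYC 0.62 and 0.64, each with the PRC2 compounds and then in the reference. IGFBP4, which binds insulin-like growth factors, was 0.93 and 0.91 higher, PTPN7, a tyrosine phosphatase of blood cells, 0.89 and 0.80, and GABRE, a GABA receptor subunit, 0.95 and 0.85, in the same order. These comparisons share the DMSO wells, so the likeness of their values is not independent.

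Of 14 erythroid transcription factors tested, 8 rose against DMSO with the PRC2 compounds, with a list median of 0.52, and 11 rose in the reference, with a median of 0.62. Over all genes tested 3.52% rose with the PRC2 compounds and 3.88% in the reference, and the medians were -0.01 and -0.00. KLF1, which drives the adult erythroid programme, averaged 231 ± 29 CPM with the PRC2 compounds. It averaged 271 ± 29.6 CPM in the reference and 134 ± 24.3 CPM in DMSO. The log2 difference of -0.22 between the PRC2 compounds and the reference did not pass (adjusted p = 0.0883, edgeR). Against the reference, KLF1 was at -0.34 with the other third-column compounds and at -0.10 in PRC2 wells outside that column. Between PRC2 and other compounds within the third column it was at -0.03. Of the genes that were lower than in DMSO with the PRC2 compounds, SQSTM1, the autophagy receptor p62, was at -0.50 (-0.31 in the reference), BRD2, a BET bromodomain protein, at -0.52 (-0.49), SERTAD1, a cell cycle coregulator, at -0.63 (-0.45) and KIF5B, a kinesin heavy chain, at -0.53 (-0.35). EZH2 in DMSO ran from 35.4 to 139 CPM, a range that includes all wells of the PRC2 compounds and the reference. Within DMSO, EZH2 was 0.72 higher on the log2 scale in first-column wells than in the other wells (adjusted p = 1.38e-06, edgeR). Singly against DMSO, GSK126 gave 27 calls (0.292%), 25 higher (0.271%) and 2 lower (0.0217%), and GSK503 gave 67 (0.726%), 59 higher (0.639%) and 8 lower (0.0866%). CPI_169 gave 76 calls (0.823%), 68 higher (0.736%) and 8 lower (0.0866%), CPI_360 164 (1.78%), 144 higher (1.56%) and 20 lower (0.217%), and EED226 35 (0.379%), 32 higher (0.347%) and 3 lower (0.0325%). Without 1 plate these single counts were 0 to 20. Without plate 1 or plate 2 the pooled count against DMSO was 56 or 197, without CPI_169 it was 318, and without the first-column DMSO wells it was 942, while the reference had 37 or 247 calls without a plate. The split of higher and lower calls depended on the scaling: with ERCC scaling it was 478 higher and 18 lower for the PRC2 compounds and 494 and 9 for the reference, and with library size alone 220 and 231, and 277 and 241.

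**Figure D5:**
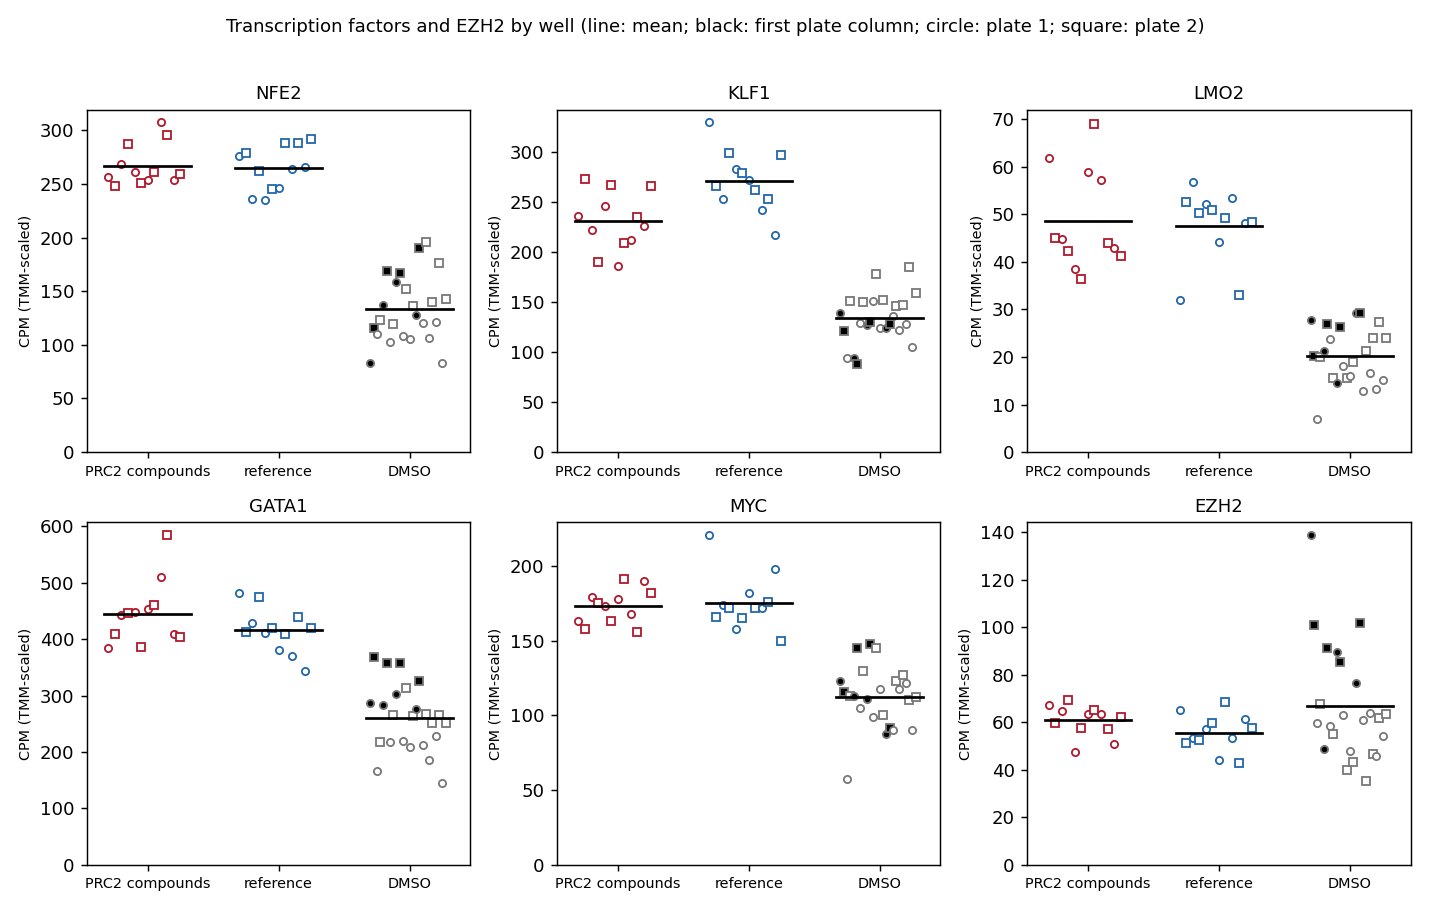
CPM (TMM-scaled, y axis) of NFE2, KLF1, LMO2, GATA1, MYC and EZH2 in each well of the PRC2 compounds (12), the reference (12) and DMSO (24), with the mean as a line (circle: plate 1, square: plate 2; black: first plate column). NFE2 is 248 to 308 CPM with the PRC2 compounds, 235 to 292 CPM in the reference and 83.5 to 196 CPM in DMSO, whereas EZH2 overlaps in all 3 groups.

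Among the other gene lists read between the pooled compounds and the reference, heat shock chaperones had 1 call of 17 tested, HSP90AB1, which fell, and a median log2 fold change of -0.08, where 0.0975% of all genes tested fell. HSP90AB1 measured 491, 705 and 821 CPM (lowest, median, highest) with the PRC2 compounds, against 737, 831 and 975 CPM in the reference, and its difference within the third column was -0.06. No member passed among globins, erythroid transcription factors, haem and iron genes, immediate early genes, cholesterol synthesis, lysosome genes, ATF4 and unfolded protein stress, interferon response, DNA replication, mitotic genes, small nucleolar RNA hosts, metallothioneins, mitochondrially encoded mRNAs and histone genes. Their medians ran from -0.08 to 0.14, beside -0.01 over all genes tested. Members of the globin and histone families share reads, so single members are uncertain.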

How the data were processed

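The deposited tables, 1 per plate of 96 wells, hold expected counts (estimated counts) per gene and well. By the values, all 57905 gene lines and 92 ERCC lines are whole counts, and the 6 summary lines, which alone hold fractions, were left out. The submitters' processing notes name cutadapt 2.1, bcl2fastq 2.17.1.14, FastQC 0.11.6 and R 4.0.2, and the genome build hg19 (GRCh37). Aligner, counting program, annotation and strand setting: not given in the sources used here. Reads per unique molecular identifier ran from 1.71 to 2.67 with the PRC2 compounds, 1.87 to 2.66 in the reference and 1.63 to 2.5 in DMSO. The sources used here do not say whether reads or identifiers were counted. Whether copies made by amplification count repeatedly is therefore not known.

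Genes were filtered and scaled over all 48 wells in edgeR 4.0.16 (R 4.3.3, limma 3.58.1). Each pooled comparison with the reference or DMSO was fitted on the wells of its own groups alone. Single compounds, their pairs and the EZH2 inhibitors against EED226 came from a fit of all 48 wells. For the third-column and EI1 comparisons and the single positions of GSK503, scaling also took in the wells of BIX_01294, A366, MI-2, MI-3 and EI1. The first-column comparison was fitted on the DMSO wells alone. filterByExpr left 9235 genes, 8714 with a symbol, and TMM factors ran from 0.94 to 1.171. The model had a term per group, or per compound for single compounds, and a plate term. The quasi-likelihood test was used with Benjamini-Hochberg adjustment over all genes of a comparison at 0.05, and the SE is the log2 fold change divided by the square root of F. The third-column, EI1 and first-column comparisons were added after the data were seen. The steps were checked on simulated data.

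A treatment's duplicates lie in wells of the same number on both plates. The plate term takes up a shift between the plates but does not pair these wells, which enter the fit as separate wells. Chi-square per degree of freedom between such duplicates was 1.1 to 2.71 (median 1.39, 24 positions), and none were identical. The plate column was read from the well number in runs of 12. GSK503 had 2 positions, so 12 wells entered where 10 had been planned.

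Genes named are all those called where a direction has at most 10. Otherwise they are the 10 largest called changes that keep their sign in every well or compound at a mean log2 CPM of 5 or more. The PRC2 subunits and the list members of smallest p were added. The members and lists were chosen with earlier results of these data known. Coordinates and sequences are left out because genome builds differ. Alternatives were DESeq2 1.42.0, limma-voom, ERCC and library size scaling, no filter, no plate term, summed positions, and leaving out plates, compounds or treatments.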

Additional observations from a re-analysis of the deposited data

Results flagged for a closer look

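The values of the 5 PRC2 compounds and of the 6 reference treatments (means of both plates) were examined as separate groups. A treatment was listed where its gap to the nearest other exceeded Dixon's critical value as a share of the range. This occurred in 6 of 66 groups examined, all of them groups of reference treatments, while chance gives about 1 in 20. With Ofloxacin, PSME2 was the lowest at 91.4 CPM (others 106 to 115, gap 0.63 of the range), SUZ12 the lowest at 7.91 CPM (others 14.1 to 17.8, gap 0.625) and PHF19 the highest at 397 CPM (others 352 to 365, gap 0.694). CFD was highest with GSK591 at 127 CPM (others 106 to 111, gap 0.777). With EPZ015666, GAPDHP21 was highest at 36.9 CPM (others 25.7 to 29.3, gap 0.682), as was BANF1P3 at 46.1 CPM (others 26.2 to 33.2, gap 0.649). PSME2, CFD, GAPDHP21 and BANF1P3 are among the 41 genes called against this reference.

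Between compounds, MARS1 with GSK126 against CPI_169 was 1.48 (SE 0.29, adjusted p = 0.0243, edgeR) and DHRS3 with GSK503 against CPI_169 was -1.15 (SE 0.22, adjusted p = 0.0163). Between positions of 1 compound, GSK503 well 39 against well 47 differed in DEF6, a guanine nucleotide exchange factor (2.44, SE 0.51, adjusted p = 0.0255), MRPL39, a mitochondrial ribosomal protein (-1.78, SE 0.39, adjusted p = 0.034), CALR (0.89, SE 0.19, adjusted p = 0.034), the pseudogene RPL14P3 (-0.83, SE 0.17, adjusted p = 0.0255) and ENSG00000251259 (-1.61, SE 0.33, adjusted p = 0.0255).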

How the results depend on the processing

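Of 143 recomputed counts of calls, 75 stayed within 1.5 times the reported count and 68 moved. Of 1638 recomputed single-gene values, 1154 kept their side of the threshold, 469 lost it and 7 passed it. A further 8 changed sign in genes called under the main or the changed setting. Genes called under neither setting count among the 1154, also where their sign changed, as for SUZ12 (-0.14 pooled, 0.17 within the third column). DESeq2 gave 118 calls for the pooled compounds against the reference (41 reported), 0 for GSK126, 117 for CPI_169, 172 for CPI_360, 120 for CPI_169 against DMSO and 84 for the pairs; limma-voom gave 7 (pooled) and 8 (pairs). ERCC scaling gave 1 pooled, 2 for CPI_169, 1 for CPI_360, 23 for GSK503 and 58 for CPI_360 against DMSO, and 4 for pairs; it moved the median of all genes by 0.12 for the pooled compounds and 0.14 for the reference against DMSO. No filter gave 74 pooled, 12 for GSK126 and 16 for pairs. Without the plate term (no replicate block) there were 21 pooled, 13 for CPI_169, 45 for CPI_360, 14 for GSK126 and 107 for CPI_360 against DMSO, and 1 for pairs. Summed positions gave 0 against the reference, 229 for the compounds and 297 for the reference against DMSO, and leaving out first-column DMSO wells 942; against the reference no first-column wells exist. Fitting a compound with the reference alone gave 324 for CPI_169 and 514 for CPI_360. Chosen after seeing the data, the third-column settings gave 0 within and 0 outside the column, and 0 for CPI_169 and for CPI_360 against the other third-column compounds. GSK503 well 39 alone gave 3 against the reference and 0 against the other third-column compounds. Leaving out 1 plate, compound or reference treatment gave 0 to 115 for the pooled compounds and 56 to 445 against DMSO. Leaving out 1 plate gave, against DMSO, 37 to 247 for the reference, 0 to 8 for GSK126, 0 to 20 for GSK503, 1 to 9 for CPI_169, 1 to 11 for CPI_360 and 0 to 3 for EED226, against the reference 0 for GSK126 and CPI_360 and 0 to 1 for CPI_169, and 0 to 2 for pairs. Among the genes named for the pooled comparison with the reference, the sign turned within the third column for PTGES2 (-0.09), PGLS (-0.07), PUSL1 (-0.12), NENF (-0.01), NTMT1 (0.03), EXOSC4 (0.06), GAPDHP65 (0.03) and BANF1P3 (0.04). Over all 41 called genes, 8 of the 32 that rose were below 0 there, the lowest SNHG19 (-0.2). Of the 9 that fell, 4 were above 0. Beyond fewer samples, the cause of these moves was not tested. For single compounds with 2 wells the median half-width of the unadjusted 95% interval was 0.53 to 0.57 on the log2 scale, and calls after adjustment need larger changes. Most members of the silent-gene lists had too few counts to test.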

Other observations

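EI1, a further EZH2 inhibitor that is not among the 5 compounds, lay in the third column. Against the reference it gave 56 calls (0.606%), 44 higher and 12 lower, and against BIX_01294, A366, MI-2 and MI-3 of the same column 3 calls (0.0325%), all lower. DHRS3, which was higher with CPI_169 than in the reference, measured 51.5 and 28 CPM with EI1, against 54.8 to 118 CPM with those 4 compounds, and is not among these 3 calls (adjusted p = 0.088, edgeR). MTCO3P17 had the largest change of the 41 called genes (2.93). It was 4.41 higher in first-column DMSO wells than in the other DMSO wells, with no compound in either, and 0.28 within the third column.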
